A study of Mus musculus with 6 samples.

Results

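The genes described here encode the aminoacyl-tRNA synthetases, the enzymes that load each tRNA with its amino acid. They were taken by name from the protein-coding genes of the count table (a 1-letter amino acid code followed by ars or ars2, with Farsa, Farsb, Eprs and Pars2), which gave 37 of 40166 genes. Of these, 20 names without a final 2 are called cytosolic here and 17 names ending in 2 are called mitochondrial. Gars and Kars stand among the cytosolic genes, although each of these genes gives rise to both the cytosolic and the mitochondrial enzyme.

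The genes were measured by bulk RNA sequencing in 6 tumors grown under the skin of C57BL/6 mice from YUMM3.3 cells, a single BRAF-mutant mouse melanoma cell line. Rigosertib (RGS) is described by the study as a RAS mimetic for which several mechanisms of action have been reported. It was given by mouth at 300 mg/kg on 5 days a week for 3 of the tumors. The other 3 came from mice given water (vehicle, 0 mg/kg). All tumors were taken after 17 days of treatment, and the comparison asks which synthetase transcripts differed under RGS. The study's methods give mice of 8 to 10 weeks and of either sex for its tumor models, and neither age nor sex is stated for these 6 tumors. The labels name 3 replicates per group without saying whether each came from its own mouse, so the p-values measure the spread between these tumors. RNA came from whole tumors, so fewer cells of a type and less RNA per cell cannot be told apart in any value below.

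A synthetase recognises 1 amino acid and the tRNAs that belong to it, activates the amino acid with ATP and joins it to the end of the tRNA. Translation in the cytosol and translation in mitochondria mostly use separate enzymes, and all of them are encoded in the nucleus. In the cytosol several synthetases sit with 3 scaffold proteins in the multi-synthetase complex. When charged tRNA runs short, the kinase GCN2 phosphorylates eIF2alpha, and the transcription factor ATF4 is then translated more and is known to induce amino acid transporters, amino acid synthesis enzymes and many cytosolic synthetases.

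The deposited counts summed to 22793087 to 32555494 in the vehicle tumors and to 13837932 to 21617368 in the RGS tumors, and the shallowest vehicle library exceeded the deepest RGS library. A floor of 3 counts stood at 0.0856 to 0.226 CPM (counts scaled to the library total times its TMM factor), which covers counting error only. The melanocyte genes Tyr, Kit, Dct and Mlana had no count in any tumor, and none of the 3 tested melanocyte markers was called. Mitf, a melanocyte transcription factor, averaged 5.45 CPM with vehicle and 7.43 CPM with RGS. Ednrb averaged 2.82 CPM with vehicle and 1.39 CPM with RGS, and Pmel 0.47 and 0.10 CPM. Leukocyte markers summed to 245 to 313 CPM with vehicle and 1007 to 1096 CPM with RGS, led by Laptm5 and Cd53 (2 of 3 tested genes higher), with Ptprc and Adgre1 at 0 in all 6 tumors. Of 8 T cell markers 6 were at 0 in all tumors, and the 1 that was tested, Trac, was called higher, with 0 reads in each vehicle tumor and 30, 16 and 10 reads in the RGS tumors. Of 7 fibroblast markers 4 were lower and 1 higher, Lum was at 0, and their sum was 404 to 601 CPM with vehicle and 294 to 320 CPM with RGS. The 8 keratinocyte markers, led by Sprr1a and Ivl (2 of 3 tested genes higher), summed to at most 2.66 CPM with vehicle and 51.9 to 77.0 CPM with RGS. Sprr1a alone stood at 45.1, 46.5 and 54.1 CPM with RGS. Krt1 was at 0 in all 6 tumors, and Krt5 and Krt14 had at most 2 and 1 reads in any tumor. Genes of the mitochondrial genome took 2.52% ± 0.589 (SD, n = 3) of counts with vehicle and 7.02% ± 1.33 with RGS, and ribosomal protein genes took 8.09% ± 2.29 and 3.37% ± 0.273. The part of these shifts in the synthetase values was not tested. Of the endothelial markers 2 of 4 tested genes were higher, and no skeletal muscle or adipocyte marker was called. With the genes of the mitochondrial genome left out of the fit, 8 synthetase genes were again lower and 1 higher, beside 16.5% and 16.2% of 15332 genes. Leaving them out moved the median of all genes by only -0.0026, so this refit does not test the shifts above.

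All 37 synthetase genes had enough counts to be tested. The cytosolic genes held 753 (Dars) to 24071 (Nars) reads per tumor, and the mitochondrial genes held 20 (Pars2) to 3257 (Iars2). Per length, as RPKM over the gene length given in the table, the vehicle mean ran from 10.5 (Farsa) to 225 (Nars) for the cytosolic genes, with a median of 51.8. The mitochondrial genes ran from 0.769 (Wars2) to 9.91 (Hars2) on the same scale, with a median of 2.81. For Nars, Lars and Hars the table's length (2632 bases for Nars) is shorter than the exon bases of GENCODE M21 (4355), and over the latter, a choice made after the values were seen, Nars was at 136 RPKM and Rars, at 148, was the highest. With either length the vehicle mean of each of the 20 cytosolic genes stood above that of each mitochondrial gene. The gap between Farsa (10.5) and Hars2 (9.91) was narrow, and their order was reversed in vehicle replicates 8 and 9. With the table's lengths the RPKM median with RGS was 47.1 for the cytosolic and 3.23 for the mitochondrial genes, where Aars2 was the median gene with vehicle and Sars2 with RGS.

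With RGS, 8 of the 37 synthetase genes were lower and 1 was higher at an adjusted p under 0.05 (edgeR), and 28 did not pass. That is 21.6% lower, beside 16.5% lower and 16.3% higher (32.8% in either direction) among all 15355 tested genes. The 3 RGS values lay all below the 3 vehicle values in 12 members and all above in 3 members, beside 24.0% and 21.7% of all tested genes. The median log2 fold change was -0.23 over the members and -0.05 over all tested genes. The 6 lower cytosolic genes were Dars, Lars, Mars, Yars, Sars and Nars, the higher one was Farsa, and the 2 lower mitochondrial genes were Mars2 and Hars2. Scaling by library size alone moved the median of all genes by -0.14 and gave 13 lower and 0 higher members, beside 20.5% lower and 12.2% higher of all genes. DESeq2 gave 9 lower and 2 higher members, beside 17.2% and 18.0% of all genes.

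**Figure D1:**
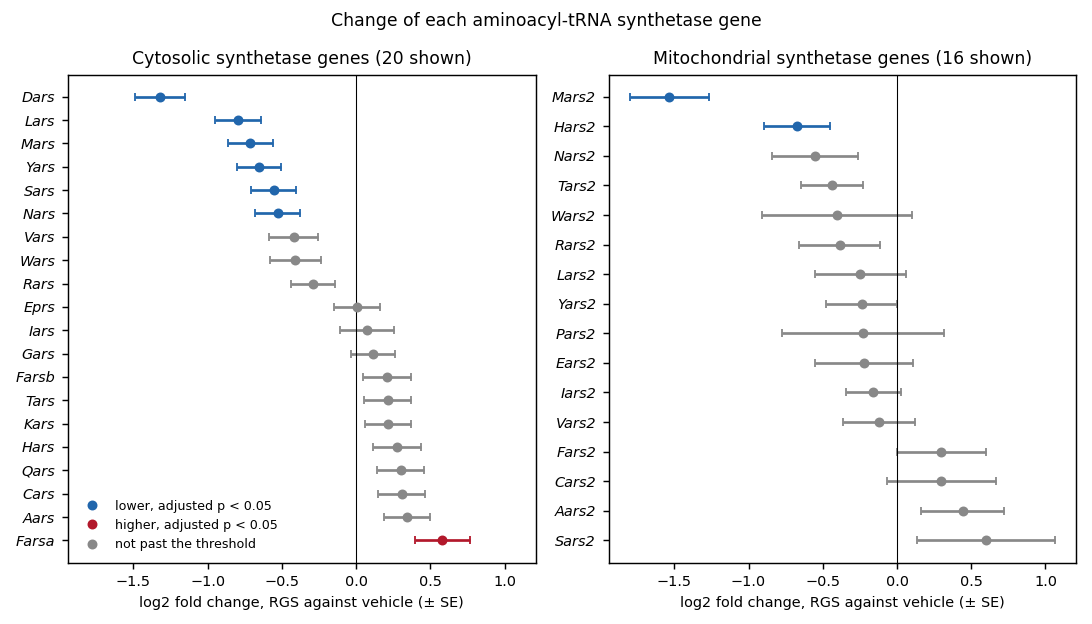
Log2 fold change of RGS against vehicle (x axis) with its standard error for each of the 20 cytosolic (left) and 16 of the 17 mitochondrial (right) synthetase genes, from 3 tumors per group. Blue and red points passed an adjusted p of 0.05; the values run from -1.32 (Dars) to 0.58 (Farsa) on the left and from -1.53 (Mars2) to 0.60 (Sars2) on the right, where the standard errors are wider.

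Among the cytosolic enzymes the gene of aspartyl-tRNA synthetase, Dars, a member of the multi-synthetase complex, differed most. Dars stood at 122, 145 and 146 CPM in the vehicle tumors and at 62.3, 56.9 and 46.0 CPM in the RGS tumors. The groups were far apart, and the fitted level was 60.0% lower (log2 fold change -1.32 ± 0.17 SE, edgeR adjusted p = 9.23e-06). None of its exon bases is shared with another annotated gene.

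The complex also holds the leucine and methionine enzymes. Lars, the leucyl-tRNA synthetase and a leucine sensor for mTORC1, stood at 408, 346 and 308 CPM with vehicle and at 193, 218 and 202 CPM with RGS. The groups did not overlap, and Lars fell by 0.79 ± 0.15 on the log2 scale (edgeR adjusted p = 6.03e-04). Mars, which charges both initiator and elongator methionine tRNA in the cytosol, stood at 199, 250 and 224 CPM with vehicle and at 133, 147 and 130 CPM with RGS, again without overlap, and fell by 0.71 ± 0.15 (adjusted p = 1.48e-03). Mars shares 68 exon bases, 1.99% of its own, with Ddit3 on the opposite strand, a gene that was also lower (-1.33), and the strand setting of the counting was not stated.

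The other 5 members of the complex did not pass the test. Rars (arginine) stood at 499, 509 and 426 CPM with vehicle and at 371, 405 and 396 CPM with RGS, a difference of -0.29 ± 0.15 in which the groups did not overlap (adjusted p = 0.139 by edgeR). Eprs, the fused glutamyl- and prolyl-tRNA synthetase, differed by 0.01 ± 0.16. Iars (isoleucine) differed by 0.07 ± 0.18, Kars (lysine) by 0.22 ± 0.15 and Qars (glutamine) by 0.30 ± 0.16. Over its 8 synthetase genes the complex thus had 3 lower (37.5%) and 0 higher, with a median of -0.14. The 12 cytosolic genes outside it had 3 lower and 1 higher, with a median of 0.16.

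The 3 scaffold genes of the complex were all lower with RGS, beside 16.5% of all tested genes. Aimp1 (p43) fell by 0.80 ± 0.20, from 157, 248 and 304 CPM in the vehicle tumors to 123, 151 and 132 CPM in the RGS tumors (edgeR adjusted p = 4.11e-03). Aimp2 (p38) fell by 0.76 ± 0.23, from 30.3, 42.7 and 44.2 CPM to 17.7, 28.5 and 23.1 CPM (edgeR adjusted p = 0.0146). Eef1e1 (p18, also known as Aimp3) fell by 0.86 ± 0.22, from 48.8, 70.2 and 91.7 CPM to 33.3, 35.5 and 46.8 CPM (edgeR adjusted p = 5.01e-03). In all 3 the groups were separate by a narrow gap, since vehicle replicate 7 lay well below the other 2 vehicle tumors.

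Outside the complex Yars, Sars and Nars were lower. Yars, the tyrosyl-tRNA synthetase, stood at 238, 211 and 228 CPM with vehicle and at 158, 133 and 139 CPM with RGS, and fell by 0.65 ± 0.15 (edgeR adjusted p = 2.58e-03). Sars, which charges serine tRNA and also the tRNA on which selenocysteine is made, stood at 602, 714 and 633 CPM with vehicle and at 398, 446 and 482 CPM with RGS, and fell by 0.56 ± 0.15 (edgeR adjusted p = 7.85e-03). Nars, the asparaginyl-tRNA synthetase, stood at 687, 573 and 520 CPM with vehicle and at 414, 393 and 427 CPM with RGS, and fell by 0.53 ± 0.15 (edgeR adjusted p = 0.0122). In each of these 3 genes the lowest vehicle tumor was above the highest RGS tumor. The call of Sars was lost without vehicle replicate 8 (edgeR adjusted p = 0.0816) and that of Nars without RGS replicate 11 (0.0625).

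Farsa, the catalytic alpha subunit of phenylalanyl-tRNA synthetase, was the 1 member called higher. Farsa stood at 54.2, 44.6 and 44.2 CPM with vehicle and at 63.3, 63.3 and 87.4 CPM with RGS. RGS replicate 12 was the highest, and the difference of 0.58 ± 0.18 (edgeR adjusted p = 0.0205) lost its call without that tumor (0.39, adjusted p = 0.153), without vehicle replicate 8 (0.56, 0.0834) and without vehicle replicate 9 (0.53, 0.0581). The beta subunit of the same enzyme, Farsb, ran from 98.5 to 135 CPM with vehicle and from 122 to 146 CPM with RGS, and its difference was 0.21 ± 0.16 (adjusted p = 0.353). Within each library the log2 ratio of Farsa to Farsb was -1.31 ± 0.14 (SD) with vehicle and -0.95 ± 0.22 with RGS, and the groups overlapped (exact two-sided permutation p = 0.2, where 3 against 3 cannot go below 0.1).

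**Figure D2:**
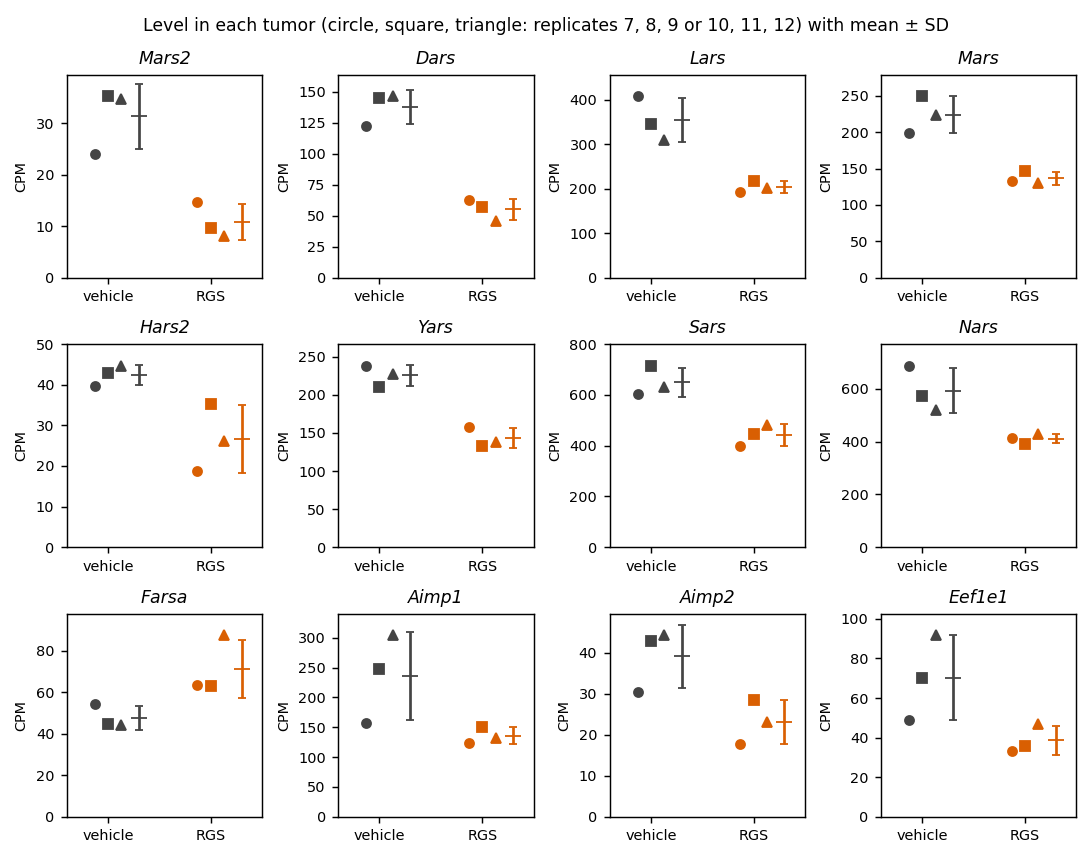
CPM (y axis, from 0) in each of the 3 vehicle (grey) and 3 RGS (orange) tumors for the 9 synthetase genes past the threshold and the 3 scaffold genes of the multi-synthetase complex, with mean ± SD beside the points. In all 12 panels the groups are separate; the gap is narrow for Aimp1, with 157 CPM in vehicle replicate 7 and 151 CPM in RGS replicate 11, and for Eef1e1, with 48.8 and 46.8 CPM in vehicle replicate 7 and RGS replicate 12.

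The remaining cytosolic genes outside the complex did not pass by edgeR, while DESeq2 called Vars lower (-0.41, adjusted p = 0.0455) and Aars higher (0.36, adjusted p = 0.0459). Vars (valine) stood at 369, 265 and 253 CPM with vehicle and at 210, 238 and 215 CPM with RGS, a difference of -0.42 ± 0.17 without overlap (edgeR adjusted p = 0.0591). Aars, the alanyl-tRNA synthetase, stood at 429, 337 and 326 CPM with vehicle and at 446, 460 and 480 CPM with RGS, a difference of 0.34 ± 0.15 in the other direction (edgeR adjusted p = 0.0951), and shares 14.3% of its exon bases with Exosc6 on the same strand. Vehicle replicate 7 was the highest vehicle tumor for both genes, and without it Aars (0.48, edgeR adjusted p = 3.31e-03) and Tars (0.36, 0.0257) passed as higher. Hars (histidine) was also separate between the groups, at 71.2 to 75.8 CPM with vehicle and 77.0 to 99.3 CPM with RGS, with a difference of 0.28 ± 0.16 (adjusted p = 0.205 by edgeR). Gars (glycine) differed by 0.11 ± 0.15, Tars (threonine) by 0.21 ± 0.16 and Cars (cysteine) by 0.31 ± 0.16, and their groups overlapped.

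Wars, the tryptophanyl-tRNA synthetase, is a textbook interferon-gamma-induced gene. It stood at 245, 184 and 163 CPM with vehicle and at 131, 145 and 171 CPM with RGS, so RGS replicate 12 lay above vehicle replicate 9, and its difference of -0.41 ± 0.17 did not pass (edgeR adjusted p = 0.0791). Of 9 other tested interferon-gamma-induced genes, 7 were lower (77.8%, beside 16.5% of all tested genes), with a median log2 fold change of -2.45 over the 9. Among them Irf1, a transcription factor of that response, (-1.51 ± 0.22), Tap1, a peptide transporter of antigen presentation (-2.29 ± 0.29), and the chemokine Cxcl10 (-3.84 ± 0.57) fell.

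The mitochondrial enzymes were lower in 2 of 17 genes and higher in 0 by edgeR, with a median log2 fold change of -0.24. The lower share was 11.8%, beside 16.5% lower and 16.3% higher of all tested genes. At an unadjusted edgeR p under 0.05, 4 were lower and 0 higher. The share of all tested genes at an unadjusted p was not taken, so these counts have no background beside them. DESeq2 and limma voom each gave 2 lower and 0 higher. Of all genes, 17.2% were lower and 18.0% higher by DESeq2, and 16.1% and 16.4% by limma voom. Mars2, which charges mitochondrial methionine tRNA and has a single exon, stood at 24.1, 35.2 and 34.8 CPM with vehicle and at 14.7, 9.56 and 8.13 CPM with RGS. The groups did not overlap, and the fitted level was 65.4% lower (-1.53 ± 0.27, edgeR adjusted p = 2.07e-04). Hars2, the mitochondrial histidine enzyme, stood at 39.8, 42.8 and 44.6 CPM with vehicle and at 18.6, 35.2 and 26.2 CPM with RGS, with a wide spread among the RGS tumors, and fell by 0.67 ± 0.22 (edgeR adjusted p = 0.0258). Its call was lost without vehicle replicate 8 (adjusted p = 0.0793), vehicle replicate 9 (0.0567), RGS replicate 10 (0.117) or RGS replicate 12 (0.0553). Hars and Hars2 lie head to head and share 195 exon bases on opposite strands.

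Tars2 also did not overlap between the groups but did not pass. Tars2 (threonine) stood at 42.0, 43.9 and 38.2 CPM with vehicle and at 22.6, 33.8 and 35.5 CPM with RGS, a difference of -0.44 ± 0.21 (edgeR adjusted p = 0.113). Another 9 mitochondrial genes had differences below 0 with overlapping groups, from Nars2 (asparagine, -0.55 ± 0.29) through Wars2 (tryptophan, -0.40 ± 0.50), Rars2 (arginine, -0.39 ± 0.27), Lars2 (leucine, -0.25 ± 0.30), Yars2 (tyrosine, -0.24 ± 0.24), Pars2 (proline, -0.23 ± 0.54), Ears2 (glutamate, -0.22 ± 0.33) and Iars2 (isoleucine, -0.16 ± 0.19) to Vars2 (valine, -0.12 ± 0.24). The 4 differences above 0 were those of Fars2 (phenylalanine, 0.30 ± 0.30), Cars2 (cysteine, 0.30 ± 0.37), Aars2 (alanine, 0.44 ± 0.28) and Sars2 (serine, 0.60 ± 0.46).

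Single tumors carried some of these values. Lars2 stood at 32.4, 30.0 and 82.9 CPM with vehicle and at 33.5, 54.2 and 34.6 CPM with RGS, and without vehicle replicate 9 its difference changed sign to 0.39. Sars2 stood at 6.42, 5.59 and 9.02 CPM with vehicle and at 3.83, 20.8 and 7.46 CPM with RGS, and without RGS replicate 11 its difference was -0.33. Iars2, the most counted mitochondrial gene, stood at 92.9, 96.9 and 65.2 CPM with vehicle and at 86.2, 63.3 and 78.7 CPM with RGS, and 22.9% of its exon bases overlap Rab3gap2 on the opposite strand.

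Summed per tumor, the cytosolic genes gave 6192, 5625 and 5136 CPM with vehicle and 4817, 5028 and 5284 CPM with RGS, so the groups overlapped. The mitochondrial genes gave 394, 413 and 438 CPM with vehicle and 309, 371 and 332 CPM with RGS, and all 3 RGS sums were below all 3 vehicle sums. The mean mitochondrial sum was 415 ± 22.3 CPM (SD, n = 3) with vehicle and 337 ± 31.5 CPM with RGS. The share of all synthetase reads that came from mitochondrial genes was 6.89% ± 0.942 with vehicle and 6.26% ± 0.526 with RGS, which overlapped. Of the cytosolic genes 30.0% were lower and of the mitochondrial genes 11.8%, beside the 16.5% of all tested genes, and the medians were 0.04 and -0.24. The median standard error was wider for the less counted mitochondrial genes (0.29 against 0.16), and the difference between the sets was not tested, since genes are not replicates of a condition.

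Set side by side by amino acid, the mitochondrial gene differed more to the negative side in 10 of 18 pairs and less in 8. The within-library log2 ratio of mitochondrial to cytosolic CPM did not overlap between the groups in 3 pairs, always with RGS below. For Hars2 to Hars it was -0.86, -0.82 and -0.67 with vehicle and -2.41, -1.13 and -1.76 with RGS, a difference of -0.99. For Mars2 to Mars the means were -2.85 ± 0.18 and -3.71 ± 0.46, a difference of -0.86, and for Tars2 to Tars they were -2.87 ± 0.23 and -3.56 ± 0.31, a difference of -0.69. Each had an exact two-sided permutation p of 0.1, the smallest that 3 against 3 allows, and a Benjamini-Hochberg value of 0.6 over the 18 pairs. In the methionine pair both genes fell. In the serine pair Sars was lower and Sars2 stood at 0.60 ± 0.46 without passing (edgeR adjusted p = 0.350), and the ratio overlapped as well. Without RGS replicate 11 the difference of Sars2 was -0.33, on the same side as Sars.

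**Figure D3:**
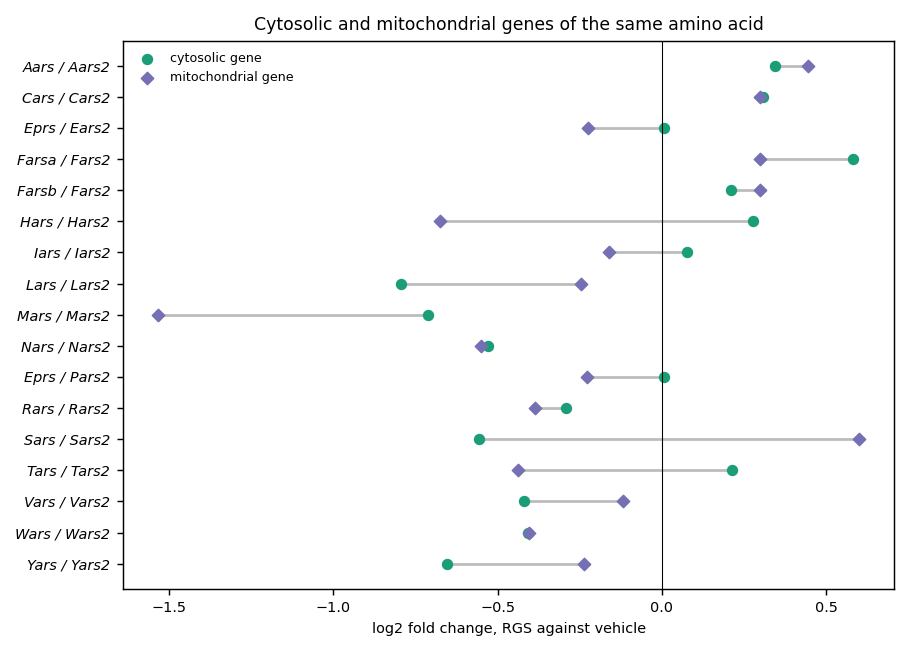
Log2 fold change of RGS against vehicle (x axis) for the cytosolic (green circle) and mitochondrial (purple diamond) gene of each of 17 of the 18 pairs, joined by a grey line; Eprs is paired with both Ears2 and Pars2, and Fars2 with both Farsa and Farsb. In the methionine pair both lie below 0 (-0.71 and -1.53), in the histidine pair the mitochondrial gene alone does (0.28 and -0.67), and in the serine pair the cytosolic gene alone (-0.56 and 0.60). Neither Hars nor Sars2 passed the test, and without RGS replicate 11 Sars2 was at -0.33.

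Synthetases belong to 2 structural classes that differ in the fold of the catalytic domain. Of 18 class I genes, 4 were lower and the rest did not pass, and 14 had a difference below 0. Of 18 class II genes, 4 were lower and 1 higher, and 8 had a difference below 0. The lower share was 22.2% in each class, beside 16.5% of all tested genes. Of these 15355 genes, 7987 had a difference below 0. The median was -0.27 in class I and 0.16 in class II, and Eprs, which joins both classes, was left out. The difference between the classes was not tested.

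Genes that work beside the synthetases gave a mixed picture. None of the 4 mitochondrial partners was called by edgeR, DESeq2 or limma voom, and 1 was lower at an unadjusted edgeR p under 0.05. Qrsl1, Gatb and Gatc, which together turn glutamate into glutamine on the mitochondrial glutamine tRNA, differed by 0.72 ± 0.41, -0.53 ± 0.37 and -0.52 ± 0.23, and Mtfmt, which formylates initiator methionine, by 0.22 ± 0.25. Qrsl1 (3.08 to 5.54 and 6.10 to 7.52 CPM) and Gatc (21.4 to 22.2 and 14.8 to 15.7 CPM) did not overlap between the groups. Tarsl2, a cytosolic threonine enzyme, differed by 0.20 ± 0.36. None of 5 genes for the editing of mischarged tRNA was called by edgeR, DESeq2 or limma voom, or had an unadjusted edgeR p under 0.05, and their median was -0.46. Of 6 genes of the selenocysteine route 1 was lower (16.7%, beside 16.5% of all tested genes). That was Pstk, the kinase that phosphorylates serine on the selenocysteine tRNA, at -1.36 ± 0.27 (18.2, 31.8 and 37.8 CPM with vehicle, 13.01, 9.79 and 11.2 CPM with RGS).

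Of 17 genes for tRNA end processing and export, 5 were lower and 2 higher (29.4% and 11.8%, beside 16.5% and 16.3% of all tested genes). Trnt1, which adds the terminal CCA to which every synthetase joins its amino acid, stood at 59.9, 83.4 and 87.7 CPM with vehicle and at 34.9, 26.1 and 26.7 CPM with RGS, and fell by 1.39 ± 0.20 (edgeR adjusted p = 2.76e-05). Trmt10c and Hsd17b10, subunits of mitochondrial RNase P, were lower (-0.69 ± 0.20 and -0.76 ± 0.21), as were the nuclear RNase P genes Rpp38 and Rpp40 (-1.53 ± 0.43 and -1.19 ± 0.34). For Hsd17b10 the groups overlapped, with RGS replicate 12 at 67.3 CPM and vehicle replicate 7 at 62.8 CPM. The nuclear RNase P genes Pop1 and Pop7 rose by 0.61 ± 0.18 and 0.82 ± 0.31. Of 10 mitochondrial translation factors 4 were lower, namely the GTPase Guf1 (-1.29 ± 0.26), the ribosome recycling factor Mrrf (-1.14 ± 0.25), the initiation factor Mtif2 (-0.64 ± 0.20) and the release factor gene Mtrf1 (-1.69 ± 0.62), and 1 was higher, the elongation factor Tufm (0.64 ± 0.17). The lower share was 40.0%.

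In the pathway that senses uncharged tRNA, 2 of 5 genes were lower by edgeR (40.0%, beside 16.5% of all tested genes) and 3 did not pass. Eif2ak4, the gene of GCN2, differed by 0.02 ± 0.23, while Eif2s1, the gene of eIF2alpha, fell by 0.93 ± 0.19. Atf4 stood at 698, 779 and 817 CPM with vehicle and at 515, 528 and 618 CPM with RGS, without overlap, and fell by 0.47 ± 0.15 (edgeR adjusted p = 0.0220). ATF4 is controlled mainly in translation, and its protein was not measured here.

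Of 28 other genes known as ATF4 targets, 18 were lower and 4 higher (64.3% and 14.3%, beside 16.5% and 16.3% of all tested genes), with a median of -0.82. Phgdh, the first enzyme of serine synthesis, stood at 718, 914 and 889 CPM with vehicle and at 208, 224 and 246 CPM with RGS and fell by 1.90 ± 0.16 (edgeR adjusted p = 4.96e-08). Asns, which makes asparagine, stood at 311, 304 and 271 CPM with vehicle and at 112, 134 and 120 CPM with RGS and fell by 1.28 ± 0.15 (edgeR adjusted p = 4.05e-06). Also lower were the pseudokinase gene Trib3 (-1.93 ± 0.17), the glutathione-degrading enzyme Chac1 (-1.68 ± 0.17), the glutamine transporter Slc1a5 (-1.598 ± 0.15), the serine synthesis enzyme Psat1 (-1.55 ± 0.17) and the lipoprotein receptor Vldlr (-1.42 ± 0.16). The 4 that rose were the cystine transporter Slc7a11 (1.01 ± 0.18) and the transcription regulators Nupr1 (0.87 ± 0.18), Cebpb (0.86 ± 0.15) and Atf5 (0.64 ± 0.15).

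The 13 cytosolic synthetase genes listed as ATF4 targets had 5 lower (Lars, Mars, Nars, Sars, Yars), with a median of -0.41, and 8 that did not pass. The other 7 had 1 lower (Dars) and 1 higher (Farsa), with a median of 0.22. The lower share was 38.5% in the 13 and 14.3% in the 7, beside 16.5% of all tested genes. For 3 pairs of an amino acid synthesis gene and the synthetase of the same amino acid, chosen after their values were seen, the within-library log2 ratio is given as a description, with no test. The differences between the group means were -0.76 for Asns to Nars, -0.998 for Psat1 to Sars and -1.33 for Phgdh to Sars.

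To set this beside promoter sequence, the 300 bases around the start of each gene (250 before and 50 after) were read from the RefSeq table for GRCm38.p6, which matched 27 of the 37 synthetase genes and 26 of the 28 other ATF4 targets. Both strands were searched for TGATGNAA, the core of the C/EBP-ATF response element (CARE) to which ATF4 dimers bind. It stood in 5 synthetase promoters and in 9 of the 26 other targets, beside 3.97% of all 32851 promoters in the table. The windows below, written in the direction of the gene with the match in capitals, are those of 4 of the 5 synthetase genes and of 3 other targets that fell.
Gars (chr6:55037960-55037989, plus strand): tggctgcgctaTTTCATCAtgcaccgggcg
Iars (chr13:49682126-49682155, plus strand): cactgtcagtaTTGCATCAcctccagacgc
Tars (chr15:11399655-11399684, minus strand): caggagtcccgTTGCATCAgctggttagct
Yars (chr4:129189895-129189924, plus strand): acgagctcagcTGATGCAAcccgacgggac
Asns (chr6:7693214-7693243, minus strand): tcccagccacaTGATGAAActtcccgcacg
Chac1 (chr2:119351038-119351067, plus strand): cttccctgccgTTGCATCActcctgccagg
Trib3 (chr2:152344028-152344057, minus strand): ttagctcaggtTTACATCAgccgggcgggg

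The CARE core did not go with one direction among the synthetase genes. Of the 5 with a match Yars was lower and Aars, Gars, Iars and Tars did not pass, with a median of 0.11. The 22 matched promoters without it had 4 lower and 1 higher and a median of -0.19. Of all tested genes 16.5% were lower and 16.3% higher. The genes with a match are all cytosolic, while those without it include mitochondrial genes, so the medians do not compare like sets. Lars, Nars, Vars, Wars and Cars, also listed as ATF4 targets, had no promoter in the table. Among the other targets, the 9 with a match had 6 lower and 2 higher (median -1.04) and the 17 without it had 10 lower and 2 higher (median -0.77). CACGTG, the E-box, stood in 5 synthetase promoters (Aars, Ears2, Farsb, Iars, Tars) beside 7.15% of all promoters, and GGAAGTG, an ETS core, in 4 (Ears2, Gars, Rars2, Tars2) beside 3615 of the 32851 promoters. None of the 5 synthetase genes with the E-box and none of the 4 with the ETS core passed the edgeR test in either direction. The 3 motifs did not overlap one another in the synthetase promoters, and a match is a run of letters and not a measured binding site.

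**Figure D4:**
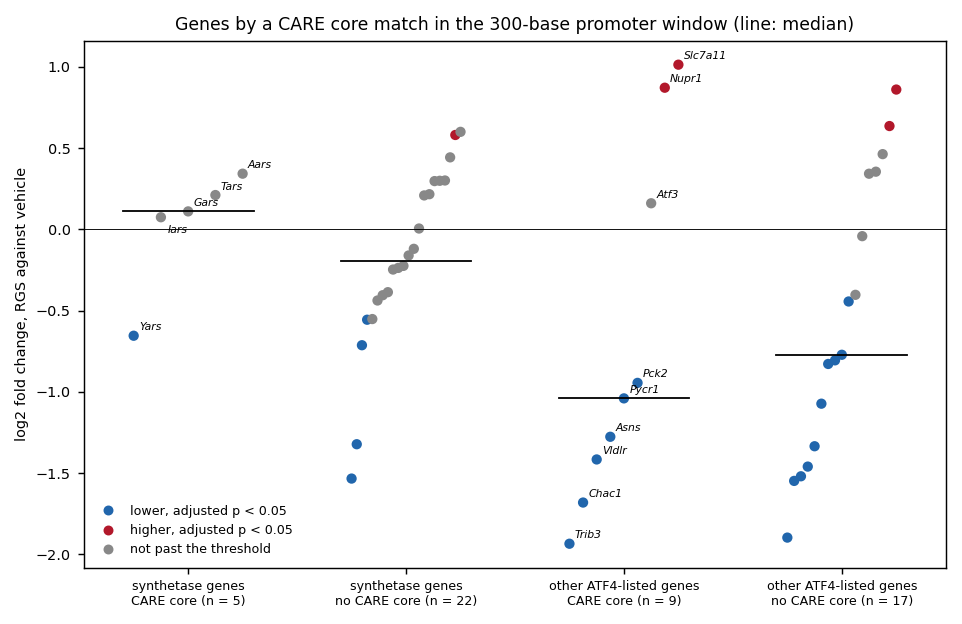
Log2 fold change of RGS against vehicle (y axis) for synthetase genes and other ATF4-listed genes with a promoter in the RefSeq table, split by a CARE core match, with the group median as a line and the genes with a match named. The synthetase genes with a match, all cytosolic, lie between -0.65 (Yars) and 0.34 (Aars), and the other targets with a match between -1.93 (Trib3) and 1.01 (Slc7a11).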

How the data were processed

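The authors deposited raw counts per gene for 3 vehicle and 3 RGS tumors, 1 column each, with gene length, position and type. Per the study's methods and the submitters' processing notes, RNA from tumors in RNAlater was sequenced as 150-base read pairs; the notes name cutadapt 1.18, FastQC 0.11.7, STAR 2.7.1a, featureCounts 1.6.4 and mm10. The strand setting is not given in the sources used here. Columns were matched by sample name. Here the counts of 15355 genes with a median of at least 5 in at least 1 group were fitted in R 4.3.3 with edgeR 4.0.16 (TMM factors, quasi-likelihood F test, Benjamini-Hochberg over all of them). CPM and RPKM were computed from these counts, with SD over 3 tumors, and the SE of a log2 fold change comes from its F statistic. Every member is named but 1, which is counted in every total but not reported here, and of each other list up to 6 genes per direction by adjusted p; Eif2ak4, Ddit3 (beside Mars), Rab3gap2 (beside Iars2) and Exosc6 (beside Aars) were added, and marker genes as a check. Members and lists, the latter written from memory, were chosen with earlier results of these data known. In all 18 alternatives were run, with DESeq2 1.42.0 and limma 3.58.1 (voom) among them, and the fit was tested on simulated data. Exon overlap was read from GENCODE M21, where 34 of 37 members have the same coordinates. A planned comparison of protein sequences was not run.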

Additional observations from a re-analysis of the deposited data

How the results depend on the processing

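Of 18 alternatives (other scalings, filters, tools, thinning to the smallest library, 2 thresholds and each tumor left out), the calls of Dars, Lars, Mars, Yars and Mars2 held in all 16 refits. Library size alone gave 13 lower and 0 higher members, 0 higher and 4 mitochondrial lower ones, and medians of -0.11 (cytosolic, a change of sign) and -0.37 (mitochondrial). DESeq2 gave 2 higher members, both cytosolic. Asking also for a log2 change of 1 or more in size left 2 lower (1 cytosolic, 1 mitochondrial) and 0 higher. That threshold left 9.44% lower and 7.61% higher of all tested genes. An adjusted p under 0.01 left 0 higher and 1 mitochondrial lower, beside 10.2% lower and 10.5% higher of all tested genes. Leaving out 1 tumor gave 6 to 9 lower members (5 to 8 cytosolic, 1 to 2 mitochondrial), 0 to 3 higher, all cytosolic, and medians of -0.08 to 0.16 (cytosolic) and -0.36 to -0.22 (mitochondrial); a group then reduced to 2 tumors shares its spread with the other. The higher count was 3 without vehicle replicate 7 and 0 without vehicle replicate 8, vehicle replicate 9 or RGS replicate 12. Genes not called changed sign: Eprs with upper-quartile factors (-0.029) and library size (-0.14), and Gars (-0.034) and Iars (-0.073) with library size. With 1 tumor left out the range crossed 0 for Eprs (-0.077 to 0.13), Iars (-0.098 to 0.32), Lars2 (-0.51 to 0.39), Vars2 (-0.36 to 0.14), Cars2 (-0.14 to 0.51), Pars2 (-0.98 to 0.14) and Sars2 (-0.33 to 0.997). The cause was not tested. No paired analysis was possible because the replicate numbers of the 2 groups (7 to 9 and 10 to 12) share none. With 20 to 154 reads per tumor, Pars2 had the widest standard error of all members.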
